A study of Mus musculus with 6 samples.

Results

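The 10 genes described here, Prdx2, Cat, Gpx1, Gpx4, Sod1, Sod2, Txn1, Nfe2l2, Gclc and Gclm, encode the main antioxidant defence of erythroid cells. They were chosen by name for their roles, with earlier results of these data known, and all 10 were found among the 17463 genes of the count table and passed the filter on low counts that left 11277 genes for testing. With 40 µM cholesterol for 30 h, none of the 10 passed an adjusted p of 0.05, beside 0.00887% of all tested genes in the model with condition alone and 6.85% in the model with the replicate number as a further term. Their changes, taken from the log2 fold changes over all 6 samples, lay between -7.26% and 3.48%, and for 5 of the 10 the direction turned when 1 sample was left out. The levels of both groups overlapped for 10 of 10 genes, while 8% of all tested genes had groups without overlap, so neither count sets the members apart from other genes.

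Fetal liver erythroblasts of C57BL/6J mice that did not yet carry TER119, an antigen of maturing red cells, were purified and kept for 30 h in Epo medium. Epo (erythropoietin) is the hormone behind terminal erythropoiesis. The medium of 3 samples held 40 µM cholesterol, and 3 samples had none added (called untreated in the labels and vehicle-treated by the study). According to the methods of the study, TER119+ cells were then sorted, and according to the labels mRNA was selected with oligo(dT) and sequenced as single-end reads. No genetic change was made in either group, and the labels give neither the embryonic age (E14.5 in the study's culture system) nor the number of embryos behind a sample. The labels do not say whether the samples of a group came from separate cultures or animals, and the study speaks of independent experiments in general without naming these libraries. The p-values therefore measure the spread between these samples, which may be partly technical.

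Developing red cells handle large amounts of iron, heme and oxygen, and oxidation of hemoglobin is a steady source of superoxide and peroxide. Superoxide dismutases turn superoxide into hydrogen peroxide, which catalase, peroxiredoxins and glutathione peroxidases remove, the last of these at the cost of glutathione. NRF2, the product of Nfe2l2, is the transcription factor that switches on many of these genes through the antioxidant response element, a short DNA motif bound with small MAF partners.

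Total counts lay between 19826797 and 20061702 per sample, so that 3 counts correspond to about 0.15 CPM (the count of a gene relative to the total of its library), and the lowest member value in any sample was 73.5 CPM. All 10 genes were therefore far above 3 counts in every sample. How much counting noise adds to the SEs below was not separated from the spread between samples. Replicate numbers separated along the first principal component (71.2% of the variance) and treatments along the second (11.3%). On the first component each cholesterol sample also lay below the control of its number. The cholesterol samples stood at -38, -19.8 and 31.5 and the controls at -32.4, 1.8 and 56.9. Globin transcripts took 12.5% to 17.9% of the counts, and the erythroid marker list summed to between 142500 and 211100 CPM, far above every other marker list. In a model that also held the replicate number, 4 of its 13 genes were lower with cholesterol, beside 5.2% of all tested genes. The sum of this list was lower with cholesterol in 3 of 3 numbers. In bulk RNA, fewer cells of a type and less RNA per cell cannot be told apart.

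Lists of other blood and liver cells were present at much lower levels. Those of granulocytes, macrophages and mast cells or basophils differed between replicate numbers and were lower with cholesterol within each number. The granulocyte list summed to between 76.2 and 708 CPM in controls and between 47.0 and 295 CPM with cholesterol, and 9 of its 12 genes were lower with cholesterol in that model, called the model with the block below. In this model 5.2% of all tested genes were lower and 1.65% higher, beside which the counts of all marker lists stand. The macrophage list ranged from 30.7 to 299 CPM in controls and from 21.3 to 112 CPM with cholesterol, with 5 of 10 tested genes lower and 1 higher in the same model. The mast cell and basophil list stayed between 0.542 and 19.1 CPM, both of its 2 tested genes were lower in the model with the block, and its marker Tpsb2 was at 0 in every sample. Megakaryocyte markers summed to 62.5 to 77.5 CPM in controls and to 59.3 to 66.8 CPM with cholesterol, lower in 3 of 3 numbers and with 1 of 7 genes lower in the model with the block, and hepatocyte markers to 98.7 to 279 CPM and 68.2 to 237 CPM, with 0 hepatocyte genes called and pairs that differed in both directions. The part of these cells in the values below was not tested.

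**Figure D1:**
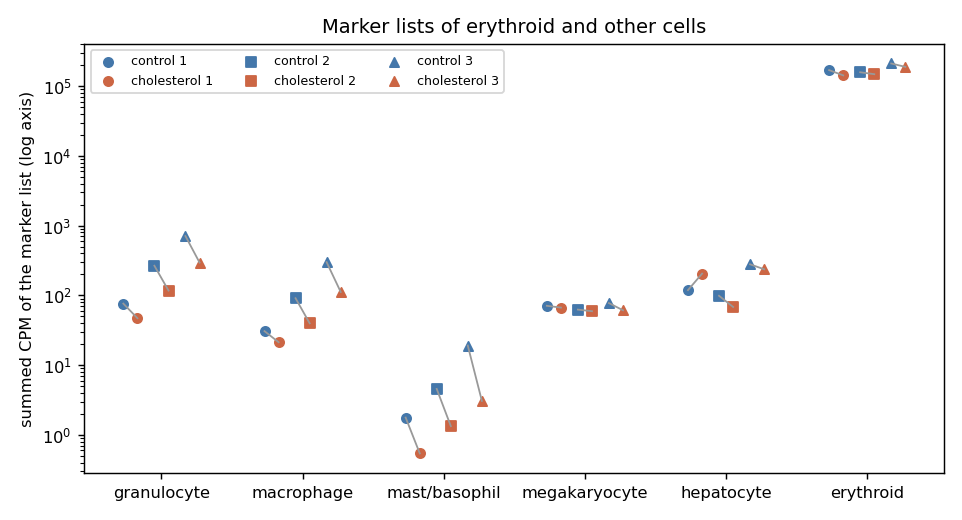
Summed CPM (log axis) of marker lists for erythroid and other cells, with blue points for control and orange points for cholesterol samples, shapes for replicate numbers and lines joining samples of the same number. The granulocyte, macrophage and mast cell or basophil lists were lower with cholesterol in 3 of 3 numbers and differed more between numbers 1 and 3 of the controls than between treatments.

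Gpx1 and Gpx4 are selenoproteins. Their active site is selenocysteine, which the ribosome inserts at a TGA that would otherwise stop translation, and the surrounding sequence is shown because it is what sets these 2 peroxidases apart from the other members. Both windows are coding sequence of the reference genome (GRCm38, GENCODE transcripts, plus strand) with the TGA in capitals, at chr9:108339430-108339474 for Gpx1 and chr10:80054716-80054760 for Gpx4.
Gpx1: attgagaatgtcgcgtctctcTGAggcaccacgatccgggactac
Gpx4: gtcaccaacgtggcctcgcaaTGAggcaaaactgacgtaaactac
The 2 stretches of 45 bases have the same base at 25 positions.

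Levels were compared between genes as FPKM, fragment counts scaled to transcript length and sequencing depth. Gpx1, the soluble glutathione peroxidase, had the highest mean of the 10 genes over the 6 samples, 2355 FPKM, and was the 16th most abundant gene of the files. Prdx2, the peroxiredoxin that is among the most abundant proteins of red cells, followed with 1283 FPKM at rank 55. Both peroxide-removing enzymes stood clear of the next gene in every sample.

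Sod1, the cytosolic superoxide dismutase, had a mean of 489 FPKM and Gpx4, which reduces lipid peroxides in membranes, 414 FPKM, and their ranges over the samples overlapped. Gclm, the modifier subunit of the enzyme that makes the first step of glutathione synthesis, averaged 303 FPKM. Cat (catalase) with 232 FPKM and Txn1 (thioredoxin, a small protein that reduces disulfides) with 219 FPKM had ranges that overlapped each other. The lowest levels were those of Gclc, the catalytic subunit partnered with Gclm, with 87.7 FPKM, of Nfe2l2 with 35.1 FPKM, and of Sod2, the mitochondrial superoxide dismutase, with 24.1 FPKM. Of the 9 pairs of neighbours in this order, the 2 named as overlapping were the only ones whose ranges met, and the highest mean was 97.6 times the lowest.

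**Figure D2:**
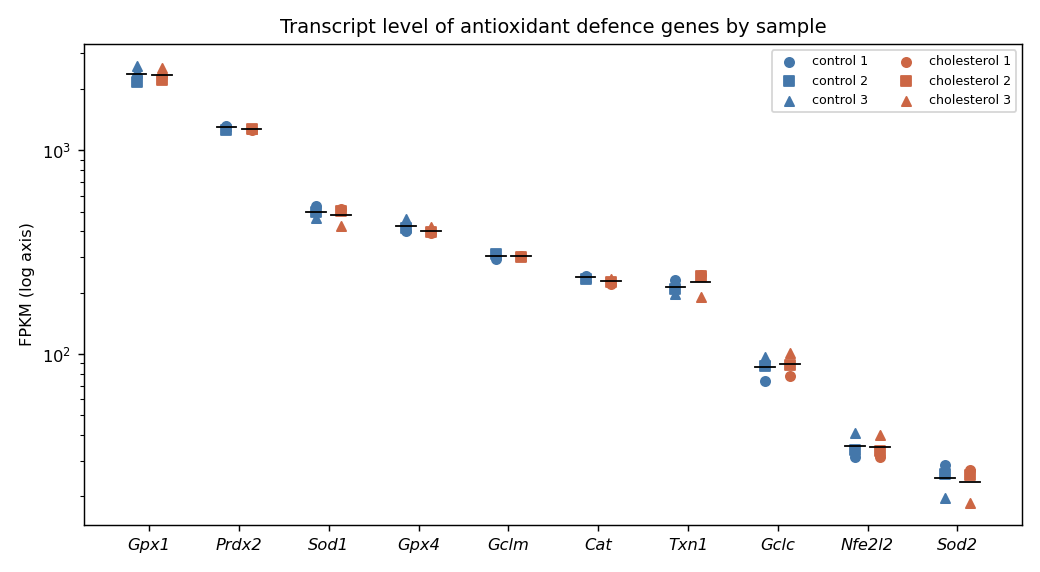
FPKM (log axis) of the 10 genes in each of the 6 samples, ordered by mean, with blue points for control, orange points for cholesterol, shapes for replicate numbers and black bars for group means. Differences between genes span 97.6-fold, while the points of both treatments overlap within every gene.

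The question of the comparison was whether added cholesterol moved these genes during terminal erythropoiesis. Over all genes, edgeR's quasi-likelihood test with condition alone called 1 gene (0.00887% of those tested), which was higher with cholesterol, and 0 of the 10 members. At an unadjusted p under 0.05 it marked 81 genes as higher (0.718%), 216 as lower (1.92%) and 0 members. With a block for the replicate number it called 772 genes (6.85%), of which 586 were lower (5.2%) and 186 higher (1.65%), and again 0 members. DESeq2 called 0 members, with 2 genes higher and 26 lower in all. For the values that follow, CPM is after TMM scaling, log2 fold changes are cholesterol over control, and the adjusted p of the condition-alone model was 0.9998 for each of the 10 genes.

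Among the peroxide-removing enzymes, Prdx2 (chromosome 8, 84969622 to 84974811, plus strand, GRCm38.p6) had 1939, 1780 and 1988 CPM in controls 1 to 3 and 1789, 1804 and 1862 CPM in cholesterol samples 1 to 3. The highest and the lowest value were both controls, so the cholesterol samples lay inside the control range. The log2 fold change was -0.06 (SE 0.07), with a 95% interval from -0.23 to 0.10, and with the block it was -0.06 (SE 0.04, adjusted p = 0.418). Prdx2 shares 177 exon bases with Rnaseh2a and 173 with Junb, both on the other strand, and whether the counting used strand is not stated, so part of its count could belong to them.

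Catalase, encoded by Cat (chromosome 2, 103453904 to 103485153, minus strand), had 637, 593 and 642 CPM in controls and 559, 576 and 618 CPM with cholesterol. Each cholesterol sample was below the control of its number, but the third cholesterol sample lay above the second control. The mean was 624 ± 26.7 CPM (SD, n = 3) in controls and 584 ± 30.3 CPM (SD, n = 3) with cholesterol. The log2 fold change was -0.09 (SE 0.07). With the block its interval, from -0.18 to -0.01, did not reach 0 (unadjusted p = 0.0345 in edgeR), while the p adjusted over all genes was 0.205.

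Gpx1 (chromosome 9, 108339080 to 108340342, plus strand) had 2437, 2220 and 2811 CPM in controls and 2326, 2258 and 2690 CPM with cholesterol. Both samples numbered 3 were the highest of their group and both numbered 2 the lowest, and the groups covered nearly the same range. The log2 fold change was -0.04 (SE 0.11) with condition alone and -0.04 (SE 0.04, adjusted p = 0.696) with the block.

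Gpx4, the peroxidase for lipid peroxides (chromosome 10, 80047166 to 80056439, plus strand), had 388, 389 and 454 CPM in controls and 365, 372 and 405 CPM with cholesterol. It was lower with cholesterol within each of the 3 numbers, by 0.09, 0.06 and 0.16 on the log2 scale, although the third cholesterol sample was above the first and second controls. This was the lowest log2 fold change of the 10 genes, -0.11 (SE 0.09) with condition alone and -0.11 (SE 0.04) with the block, with an interval from -0.19 to -0.02 in the latter. Its unadjusted p in the edgeR model with the block was 0.0178 and its adjusted p 0.138. The reference lists a pseudogene, Gpx4-ps2, and how far its sequence could share reads with Gpx4 was not tested.

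Of the superoxide dismutases, Sod1 (chromosome 16, 90220762 to 90226333, plus strand) had 340, 307 and 304 CPM in controls and 318, 310 and 273 CPM with cholesterol. The highest value was control 1 and the lowest cholesterol 3, and the second pair differed by 0.02 on the log2 scale in the opposite direction to the other two. Its log2 fold change was -0.08 (SE 0.08) and -0.08 (SE 0.04, adjusted p = 0.356) with the block. Sod2 (chromosome 17, 13007839 to 13018119, plus strand) had 113, 98.5 and 79.6 CPM in controls and 102, 97.7 and 73.5 CPM with cholesterol. The numbers had the same order in both groups, with cholesterol just under control in each of the 3, and the log2 fold change was -0.09 (SE 0.17) with condition alone against -0.09 (SE 0.05, adjusted p = 0.307) with the block.

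Txn1 (chromosome 4, 57943373 to 57956411, minus strand) had 245, 215 and 216 CPM in controls and 251, 247 and 201 CPM with cholesterol. It was the least even of the members across pairs, with differences of 0.03, 0.20 and -0.10 on the log2 scale, and both the highest and the lowest sample were cholesterol samples. Its log2 fold change was 0.05 (SE 0.11), the highest of the 10, and the adjusted p with the block was 0.715.

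For glutathione synthesis, Gclc (chromosome 9, 77754535 to 77794489, plus strand) had 255, 287 and 342 CPM in controls and 259, 293 and 346 CPM with cholesterol. The pairs differed by 0.03, 0.03 and 0.02 on the log2 scale, while the numbers themselves were spread over 0.42, so the 3 pairs were nearly superimposed. The log2 fold change was 0.02 (SE 0.15) and with the block 0.02 (SE 0.04, 95% interval -0.06 to 0.11, adjusted p = 0.824). Gclm (chromosome 3, 122245487 to 122267215, plus strand) had 624, 642 and 673 CPM in controls and 625, 618 and 644 CPM with cholesterol. These were the narrowest groups of the 10 genes together with Prdx2 and Cat, and the log2 fold change was -0.04 (SE 0.06), or -0.04 (SE 0.04, adjusted p = 0.658) with the block. Gclm shares 296 exon bases with Gm17494 on the other strand and 244 with the pseudogene Gm6061, so that some of its count is uncertain.

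Nfe2l2, which encodes NRF2 (chromosome 2, 75675513 to 75704663, minus strand), had 80.7, 84.7 and 108 CPM in controls and 77.1, 83.2 and 103 CPM with cholesterol. Both samples numbered 3 stood above the other four, and each cholesterol sample was slightly below the control of its number. The log2 fold change was -0.06 (SE 0.15) and with the block -0.06 (SE 0.05, adjusted p = 0.552). The activity of NRF2 is set largely by its protein, which RNA-seq does not measure.

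**Figure D3:**
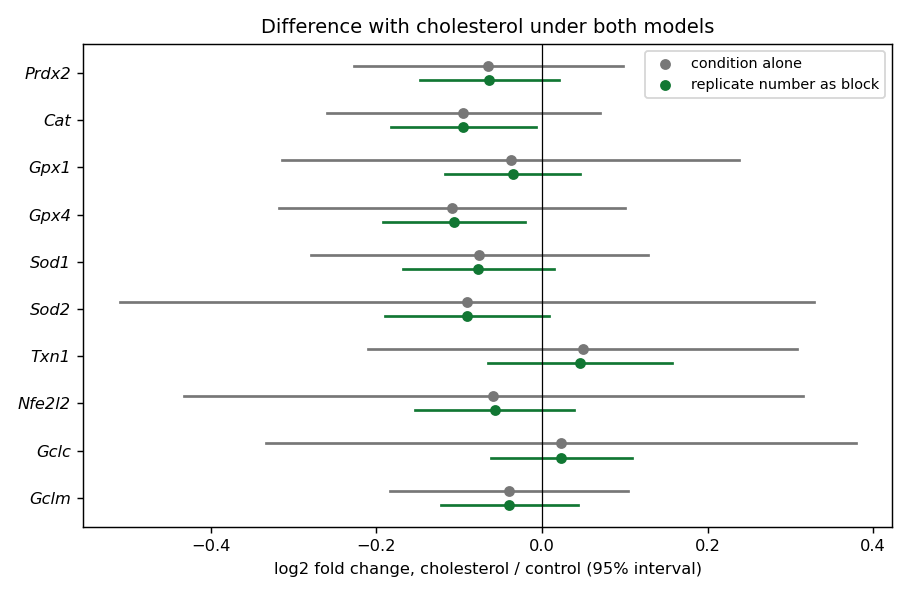
Log2 fold change of each member (x axis, cholesterol over control) with its 95% interval, in grey for the model with condition alone and in green with a block for the replicate number. All 10 grey intervals and 8 of 10 green ones hold 0, and the green intervals together reach from -0.19 to 0.16.

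Considered side by side, 8 of the 10 log2 fold changes were below 0 and 2 above, with a median of -0.06 beside 0.01 over all genes, of which 47.9% were below 0. Of the 30 differences within same-numbered pairs, 21 were below 0, and they ran from -0.19 to 0.20. Cat, Gpx4, Sod2 and Nfe2l2 were lower in 3 of 3 pairs and Gclc was higher in 3 of 3, beside 20.1% and 19.9% of all genes. Groups without overlap were found for 0 of 10 members, beside 8% of all genes (3.72% with cholesterol above and 4.28% with cholesterol below). At an unadjusted p under 0.05 the model with the block marked 2 of 10 (Cat and Gpx4), beside 19.6% of all genes. Leaving out both samples of a number moved this count. Without number 2, 5 of 10 were lower (1022 of 11492 genes were), and without number 1, 0 were (1350 of 11496). Without number 3, 1 was lower (1093 of 11128) and 1 higher (734).

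The 95% intervals, each for a single gene and not for the 10 together, give the precision of these values. With condition alone they reached from -0.51 to 0.38 on the log2 scale over the 10 genes, and with the block from -0.19 to 0.16. The median SE with the block was 0.04 for the members and 0.07 for all genes.

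The levels of the members also differed between replicate numbers. The range of the 3 pair means on the log2 scale had a median of 0.22 over the members, beside 0.30 for all genes. Samples numbered 3 had the highest Prdx2, Cat, Gpx1, Gpx4, Nfe2l2, Gclc and Gclm of their group and the lowest Sod1 and Sod2. This range was 0.49 for Sod2, 0.42 for Gclc and 0.42 for Nfe2l2, and 0.08 for Gclm. What the replicate numbers stand for is not given, and granulocyte and macrophage markers were highest in samples numbered 3 of both groups.

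**Figure D4:**
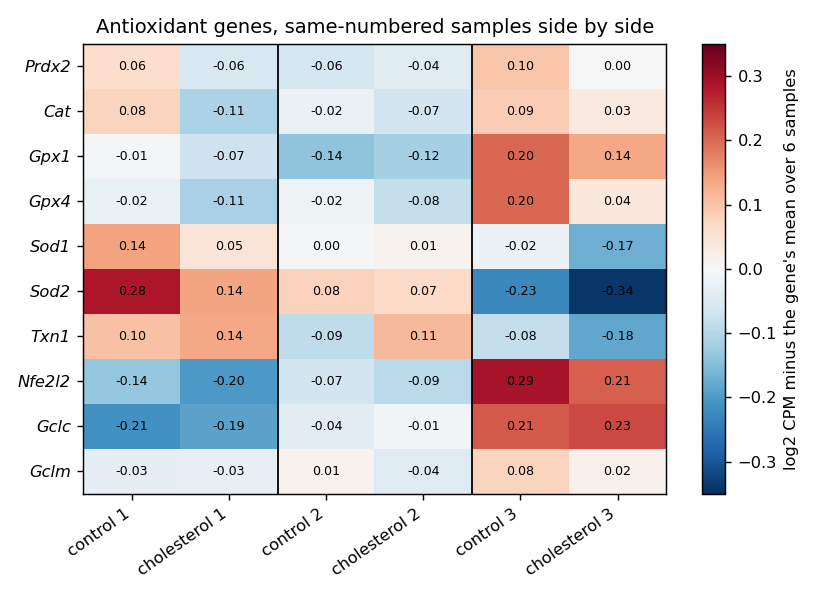
Log2 CPM of each member minus its own mean over the 6 samples (colour and printed value), with samples of the same number side by side and vertical lines between numbers. For Gclc, samples of different numbers are further apart than control and cholesterol samples of the same number, and for Sod2 and Nfe2l2 both samples numbered 3 stand apart from the other four.

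To place the members in their pathways, 74 other redox genes were grouped by role, of which 71 were tested. With condition alone 0 of the 71 were called, 4 were lower and 0 higher at an unadjusted p under 0.05, and DESeq2 called 0. With the block 9 were lower (12.7%, beside 5.2% of all genes) and 1 was higher (1.65% of all genes were). Their median log2 fold change was -0.03, and for 10 of the 71 every cholesterol sample was below every control (4.28% of all genes), with 0 the other way. All 10 called genes had the same direction in 3 of 3 pairs. The block tests the difference within numbers, so this largely follows from their being called and adds no support. For 4 of these genes the groups did not overlap. When both samples of number 2 were left out 3 of the 10 remained called, against 8 without number 1 and 9 without number 3. Over all genes the block called 67 higher and 229 lower without number 2. Without number 1 it called 118 and 703, and without number 3 it called 210 and 516. Without number 2 the log2 fold changes of lost calls were -0.198 (Srxn1), -0.525 (Glrx), -0.178 (Tkt) and -0.168 (Taldo1). Those of Acsl4, Me1 and Txnip were -0.346, -0.439 and 0.244. In simulated data the model with the block called some genes even when none had been changed, which limits these 10 calls.

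The list for the supply of NADPH, which keeps glutathione and thioredoxin reduced, had the most called genes, 5 of 8, all lower with the block (5.2% of all genes were), and a median log2 fold change of -0.17. With condition alone 0 of the 8 were called, and with the block but without number 2 the calls on Me1, Tkt and Taldo1 were lost and those on Pgd and Idh1 remained. Pgd, the dehydrogenase that yields NADPH in the oxidative part of the pentose phosphate pathway, had 159, 143 and 165 CPM in controls and 130, 114 and 136 CPM with cholesterol. Every cholesterol sample was below every control, and the log2 fold change with the block was -0.30 (SE 0.04, adjusted p = 1.85e-04). Idh1, the cytosolic isocitrate dehydrogenase, had 7.08, 5.65 and 7.73 CPM in controls and 2.32, 2.77 and 4.70 CPM with cholesterol, with no overlap at this low level and a log2 fold change of -1.09 (SE 0.17, adjusted p = 5.83e-04).

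Malic enzyme, encoded by Me1, had 17.6, 14.3 and 7.84 CPM in controls and 13.3, 7.46 and 5.62 CPM with cholesterol, with overlapping groups and a log2 fold change of -0.60 (SE 0.11, adjusted p = 0.00217). Tkt (transketolase) and Taldo1 (transaldolase), of the non-oxidative part of the pathway that itself makes no NADPH, had log2 fold changes of -0.19 (SE 0.04, adjusted p = 0.00630) and -0.15 (SE 0.04, adjusted p = 0.0235). The Tkt call was lost when number 1 was left out (adjusted p = 0.113) or number 2 (0.0697), and so was that of Taldo1 (0.196 and 0.0858).

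In the other roles, Nqo1, a quinone reductase and a well known NRF2 target, had 126, 152 and 123 CPM in controls and 109, 111 and 94.4 CPM with cholesterol. Its groups did not overlap, and its log2 fold change with the block was -0.35 (SE 0.05, adjusted p = 2.46e-04), while Nfe2l2 itself was not called. Hmox1 (heme oxygenase, likewise a known NRF2 target), which is outside the rule for naming and was added after its values were seen, had 20.98, 20.6 and 26.1 CPM in controls and 28.7, 25.6 and 23.3 CPM with cholesterol. It was higher in pairs 1 and 2 and lower in pair 3, with a log2 fold change of 0.20 (SE 0.11, adjusted p = 0.393) with the block and 0.38 (SE 0.08, adjusted p = 3.33e-04) when number 3 was left out. Srxn1 (sulfiredoxin, which repairs overoxidised peroxiredoxins) had 305, 321 and 427 CPM in controls and 276, 269 and 359 CPM with cholesterol, lower in each pair, with a log2 fold change of -0.22 (SE 0.04, adjusted p = 0.00301). Without number 2 the call on Srxn1 was lost (adjusted p = 0.0620).

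Acsl4, whose enzyme activates polyunsaturated fatty acids for use in membrane lipids, had 33.6, 34.2 and 29.3 CPM in controls and 23.3, 23.8 and 26.2 CPM with cholesterol, without overlap and with a log2 fold change of -0.41 (SE 0.08, adjusted p = 0.00307). Glrx (glutaredoxin) had a log2 fold change of -0.51 (SE 0.10, adjusted p = 0.00334) from a mean of 11.9 ± 3.24 CPM (SD, n = 3) in controls and 8.31 ± 1.71 CPM (SD, n = 3) with cholesterol. Without number 2 the adjusted p was 0.0679 for Acsl4, 0.0533 for Glrx and 0.0981 for Me1.

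Txnip, which binds and inhibits thioredoxin, was the 1 gene called higher. It had 94.0, 118 and 151 CPM in controls and 99.4, 138 and 198 CPM with cholesterol, with a log2 fold change of 0.24 (SE 0.05, adjusted p = 0.0143). It was higher in 3 of 3 pairs, but its groups overlapped and it was not called without number 2 (adjusted p = 0.114) or number 3 (0.0505).

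Of 16 tested genes of glutathione synthesis, transfer and recycling 0 were called over the 6 samples. Over all genes 0.00887% were called with condition alone and 6.85% with the block, so this count does not set so short a list apart. Mgst3 passed the threshold with the block when number 3 was left out (adjusted p = 0.0160), and Gstm1, another glutathione transferase, when number 1 was (0.0241). The one with the smallest unadjusted p with condition alone was Gsr, the glutathione reductase, with a log2 fold change of -0.13 (SE 0.04, adjusted p = 0.0898) with the block. Closest to the threshold with the block was Mgst3, a microsomal glutathione transferase which like Gstm1 is outside the rule for naming and was added after its values were seen, at -0.13 (SE 0.04, adjusted p = 0.0616). Ccs, the copper chaperone of Sod1, was the 1 tested gene of the superoxide list at 0.03 (SE 0.06, adjusted p = 0.876). None of the 7 genes of selenocysteine metabolism and its insertion at the TGA shown above was called, which beside the same shares of all genes does not set them apart. The smallest unadjusted p among them with condition alone was that of Secisbp2, whose log2 fold change with the block was 0.11 (SE 0.06, adjusted p = 0.336). With the block the smallest was that of Trnau1ap, a gene outside the rule for naming and added after its values were seen, at 0.23 (SE 0.08, adjusted p = 0.0997).

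**Figure D5:**
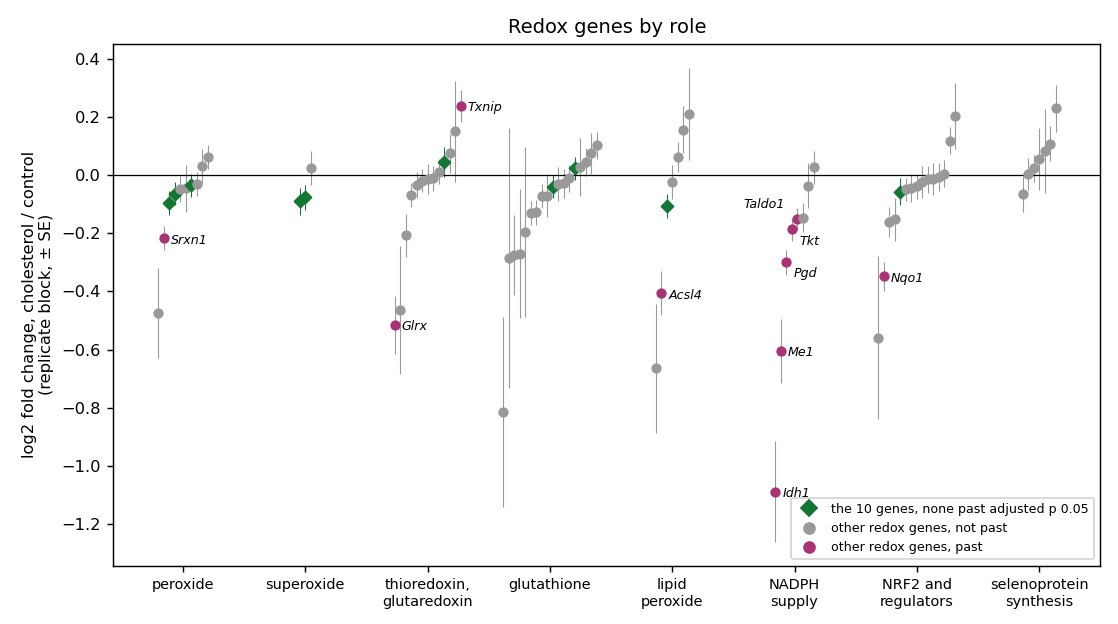
Log2 fold change with SE from the model with the replicate block for the members (green diamonds) and the other tested redox genes (circles), by role, with purple circles past an adjusted p of 0.05. The 5 called genes of the NADPH supply list, of which Pgd, Me1 and Idh1 encode enzymes that make NADPH, are all below 0, Txnip alone of the called genes is above, and the members lie within 0.11 of 0.

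Whether the members carry the core of the antioxidant response element was read from RefSeq promoters (GRCm38.p6, 300 bases around the start site, mostly upstream), which were given for 9 of the 10 members. The letters TGACNNNGC, searched on both strands, occurred in the promoters of Sod1, Nfe2l2 and Gclm, 3 of 9, in 15 of 65 other redox genes (23.1%) and in 14% of 27025 genes. They are shown because NRF2 acts through this motif, with the motif in capitals on the strand of the gene (its reverse complement where it lies on the other strand). The stretches are at chr2:75704870-75704913 (Nfe2l2, minus strand), chr3:122245398-122245456 (Gclm, plus), chr16:90220681-90220739 (Sod1, plus) and, for 3 of the 10 called genes, chr2:152105542-152105570 (Srxn1, plus), chr4:149166061-149166089 (Pgd, minus) and chr9:86695902-86695930 (Me1, minus).
Nfe2l2: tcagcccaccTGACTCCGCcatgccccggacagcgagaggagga
Gclm: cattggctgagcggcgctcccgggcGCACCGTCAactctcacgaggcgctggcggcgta
Sod1: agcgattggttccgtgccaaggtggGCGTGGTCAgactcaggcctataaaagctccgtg
Srxn1: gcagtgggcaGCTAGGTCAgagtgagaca
Pgd: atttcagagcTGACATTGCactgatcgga
Me1: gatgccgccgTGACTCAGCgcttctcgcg
The 3 members with the letters had log2 fold changes of -0.06, -0.04 and -0.08 (Nfe2l2, Gclm and Sod1) and were not called. Srxn1, Pgd and Me1 are shown because they were called, so their direction is no result of the motif, and the rest of the 15 other redox genes with the letters were not called with the block. The GATA letters AGATAA occurred in 0 of 9 member promoters and 12.7% of genes, and the sterol regulatory element letters TCACNCCAC in 0 of 9 and 1.44% of genes. These matches describe a window of 300 bases and say nothing on whether a factor binds there.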

How the data were processed

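Single-end RNA-seq of 6 samples was analysed. The authors deposited expected counts per gene, which are not normalized and of which 27.9% to 29.5% per sample were not whole, and a normalized table whose values, by the gene lengths they imply, are FPKM computed by the authors. The submitters' processing notes list HISAT2 2.0.4, Bowtie2 2.2.5, RSEM 1.2.12, DESeq2 1.4.5 and the build GRCm38.p6. The annotation used here for positions is RefSeq and GENCODE of the same build.

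Expected counts were rounded and tested with edgeR 4.0.16 (R 4.3.3): filterByExpr (at least 10 counts in enough samples, 15 in total), TMM, robust quasi-likelihood test, Benjamini-Hochberg adjustment over 11277 genes. SEs come from the F statistic. An exact permutation test of 3 against 3 cannot go below 0.1 and was not used. The model had condition alone. The alternative added the replicate number, taken from the sample titles, as a block. Deviations from group means correlated at 0.740, 0.367 and 0.831 between samples numbered 1, 2 and 3, so the numbers were taken as pairing samples, although control 1 and cholesterol 2 correlated at 0.363. Both models recovered changed genes in simulated data, where the model with the block made more false calls and made some with no gene changed. Other alternatives were DESeq2 1.42.0, its size factors, library sizes without globin, no filter, limma 3.58.1 on log2(FPKM + 1) or with 0.1, and samples left out. No library was a copy of another (lowest chi-square per degree of freedom 8.74).

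The members and the lists of redox and marker genes were chosen with earlier results of these data known. Named were all 10 members and, in each role list, the genes past the threshold in either model or else the one with the smallest unadjusted p.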

Additional observations from a re-analysis of the deposited data

How the results depend on the processing

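The 10 members were called in 0 of 17 alternatives, with a lowest adjusted p of 0.0869 (Cat, with the block and without number 3). Outside the fits with the block, the alternatives called at most 2 genes higher and 26 lower over all genes. In those fits 0 of 10 members was therefore nearly set in advance and says little. Of 170 member values 160 kept their direction. The median log2 fold change of the members, -0.0618 in the main fit, was -0.0195 without control 3 and -0.102 without control 2. With limma on log2(FPKM + 1) it was -0.0289, beside 0.0382 over all genes. The log2 fold change changed sign for Gpx1 without control 3 (0.060) or cholesterol 2 (0.0086), Sod2 without control 1 (0.039) or cholesterol 3 (0.046), Txn1 without cholesterol 1 (-0.0060) or in the block without number 2 (-0.033), Nfe2l2 without control 3 (0.084) or cholesterol 1 (0.026), and Gclc without control 1 (-0.068) or cholesterol 3 (-0.091), none of them past the threshold in any setting. With 1 sample left out, these values ran from -0.12 to 0.060 for Gpx1, -0.21 to 0.046 for Sod2, -0.0060 to 0.15 for Txn1, -0.18 to 0.084 for Nfe2l2 and -0.091 to 0.14 for Gclc. The other members stayed below 0, from -0.11 to -0.031 for Prdx2, -0.13 to -0.063 for Cat, -0.15 to -0.030 for Gpx4, -0.12 to -0.0089 for Sod1 and -0.061 to -0.0092 for Gclm, with the value nearest 0 found without control 3 for Prdx2, Gpx4 and Gclm, without cholesterol 1 for Cat and without cholesterol 3 for Sod1.

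The counts over other genes depended on the replicate block. Over all genes DESeq2 called 2 higher and 26 lower, the block 186 and 586, and the block without number 1, 2 or 3 called 118, 67 and 210 higher and 703, 229 and 516 lower. Leaving out 1 sample gave 1 to 1 higher and 0 to 7 lower, the 7 without control 3 and 1 without cholesterol 3. At an unadjusted p under 0.05 in edgeR with condition alone, 81 genes were higher and 216 lower with all samples. With 1 sample left out, 26 (without cholesterol 2) to 114 (without cholesterol 3) were higher. Between 101 (without cholesterol 2) and 335 (without control 1) were lower. Of other redox genes the block called 1 higher and 9 lower, and without number 1, 2 or 3 it called 1, 0 and 1 higher and 8, 3 and 11 lower, with 0 to 0 when 1 sample was left out. The median log2 fold change of the other redox genes, -0.0301 in the main fit, was -0.0745 without cholesterol 3 and 0.000265 with limma on log2(FPKM + 1). The pairing changed no call on a member. The cause of these differences was not tested. Both models rest on groups of 3 samples, and leaving out a number leaves the block 1 residual degree of freedom per gene before pooling across genes.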

Other observations

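Gpx1 and Gpx4 belong to a set of 23 genes in the files whose GENCODE transcripts have an annotated selenocysteine codon, a set chosen after the values were seen. Of these 18 were tested, 0 were called in either model (0.00887% and 6.85% of all genes were), and their median log2 fold change was -0.03.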
